A study of Mesocricetus auratus with 14 samples.

Results

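Mitochondrial ribosomal proteins are the protein subunits of the ribosome inside mitochondria. They were taken here as every gene of the authors' table whose symbol starts with Mrpl or Mrps followed by a digit, with upper and lower case read alike. The rule found 66 genes among the 10023 genes with a symbol in that table, and their read counts came from a count table of 22283 genes. It used names alone and no measured value. All 66 genes passed the filter on low counts. The lowest count of any of them in any library was 132 reads, for Mrps14.

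The samples were livers of golden hamsters, Mesocricetus auratus, 7 from animals given the compound DC371739 and 7 labelled control, and a high-fat diet is the label of both groups. The labels state no dose, duration, sex or age. They also leave unstated whether each sample is a separate animal, and if it is not, the p-values cover technical spread only. The libraries are named below by group and replicate, DC1 to DC7 for DC371739 and C1 to C7 for control.

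Mammalian mitochondria keep a small genome that encodes subunits of the respiratory chain and ATP synthase, the rRNAs of the mitochondrial ribosome and a set of tRNAs. All proteins of that ribosome are encoded in the nucleus, made in the cytosol and imported. Some descend from proteins of the bacterial ribosome and others have been added in mitochondria. In liver, an organ rich in mitochondria, this machinery supplies the membrane core of oxidative phosphorylation. The roles given below for single proteins come from work in human, other mammalian and bacterial ribosomes, not from hamster.

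By their known place in the mammalian ribosome, 45 of the 66 genes encode proteins of the large subunit, which forms peptide bonds, and 21 encode proteins of the small subunit, which reads the mRNA. Mrps30 counts with the large subunit, where mammalian structures place its protein in spite of its name. By origin, 39 of the proteins have a bacterial counterpart and 27 are specific to mitochondria. The exons of a member summed to between 451 and 2600 bases, with a median of 1060 bases, against 1996 bases for all tested genes. Exons of Mrpl9, Mrpl12, Mrpl49 and Mrps30 overlap those of another gene in the count table, with strand not considered. The strand setting is not stated, so how reads from the shared stretches were counted is not known.

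Library totals lay between 13672589 and 23948628 counts. The 3 deepest libraries, DC7, C6 and C7, had 22152239 to 23948628 counts, and the other 11 had 13672589 to 16710097. Genes of the mitochondrial genome held 12.6% to 14.4% of counts in those 3 libraries and 7.23% to 9.33% in the other 11. The labels give no batch, so the depth class was set from the totals alone. The split was made because earlier results of these data had shown these 3 libraries standing apart. The depth class holds 1 DC371739 library and 2 control libraries. Counts of called genes are therefore given for all 14 libraries, with a term for this class, and over the 11 shallower libraries alone. Of those 11, 6 are DC371739 and 5 are control. Values of single genes are given for some or all of these fits.

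All members were expressed in these livers above the median gene with a symbol. On the FPKM scale, which divides by gene length, the median member had a mean level of 44.6 FPKM over 14 libraries, against 8.72 FPKM for the median gene with a symbol. Even the lowest member lay above 64.7% of the genes with a symbol, and the highest was 7.70 times as abundant as the lowest. The median level of large-subunit members was 48.7 FPKM and that of small-subunit members was 34.7 FPKM. The median member had 40.1 FPKM in DC371739 livers and 47.0 FPKM in control livers.

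The highest FPKM level was that of Mrpl23, whose bacterial counterpart sits at the exit of the peptide tunnel, with 110 FPKM in DC371739 livers and 132 FPKM in control livers. Mrpl41, specific to mitochondria, had 90.6 FPKM in DC371739 livers and 111 FPKM in control livers. Mrpl33, counterpart of bacterial L33, had 81.1 FPKM in DC371739 livers and 106 FPKM in control livers. These 3 large-subunit genes were followed, in mean level over both groups, by Mrpl27 at 91.9 FPKM and Mrpl14 at 88.0 FPKM, counterparts of bacterial L27 and L14. At the low end stood Mrps30, with 14.7 FPKM in DC371739 livers and 16.7 FPKM in control livers. The next lowest means over 14 libraries were those of Mrps26 at 20.9 FPKM, Mrpl38 at 21.6 FPKM, Mrps14 at 21.8 FPKM and Mrpl22 at 21.9 FPKM. Within each group, neighbours in this order differed by less than their summed SDs, apart from Mrps26 and Mrps30 in DC371739 livers.

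**Figure D1:**
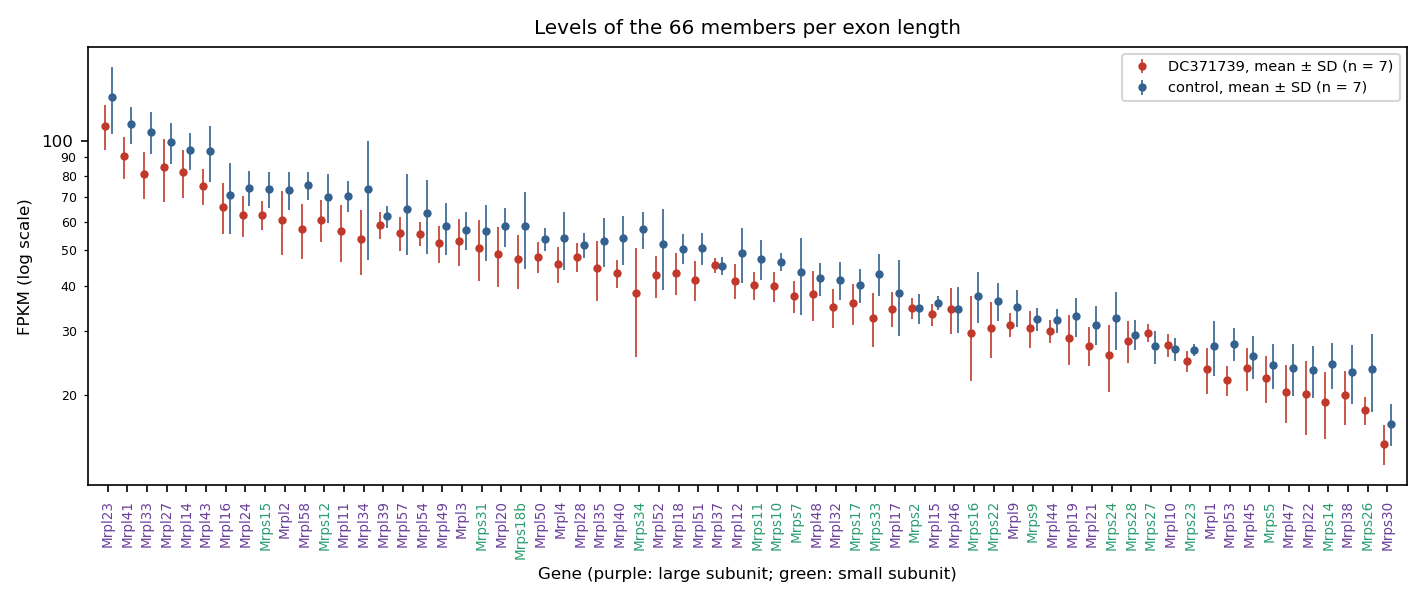
Mean level of each of the 66 members in FPKM on a log scale, in DC371739 livers (red) and control livers (blue), with SD over 7 libraries each, ordered by the mean over both groups. Symbols in purple are large-subunit genes and symbols in green small-subunit genes. The order runs from Mrpl23 to Mrps30, and DC371739 means mostly sit below the control mean of the same gene, most of them with overlapping error bars.

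Summed over the 66 members, expression was 1962 to 2419 CPM (counts scaled by library size and TMM factor, per 1e+06) in DC371739 livers, with a median of 2144, and 2344 to 2832 CPM in control livers, with a median of 2516. The mean was 2176 ± 183 CPM in DC371739 livers and 2511 ± 171 CPM in control livers (SD, n = 7 each). The groups overlapped: DC1 at 2361 CPM and DC7 at 2419 CPM lay among the control values, while DC2, DC3, DC4, DC5 and DC6, at 1962 to 2283 CPM, lay below every control. The highest library was C2 at 2832 CPM. In bulk liver RNA, less RNA per cell and fewer cells that carry it cannot be told apart.

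Both subunits followed this order of groups. Large-subunit transcripts summed to 1622 ± 144 CPM in DC371739 livers and 1867 ± 137 CPM in control livers (SD, n = 7 each). Small-subunit transcripts summed to 554 ± 40.9 CPM in DC371739 livers and 643 ± 42.2 CPM in control livers (SD, n = 7 each). Over the 11 shallower libraries, the small-subunit sums were 516 to 606 CPM in DC371739 livers and 622 to 723 CPM in control livers, with no overlap, and the large-subunit sums, 1446 to 1754 CPM in DC371739 livers and 1707 to 2110 CPM in control livers, overlapped. The 3 deeper libraries stood close together, with small-subunit sums of 596 to 611 CPM and large-subunit sums of 1763 to 1937 CPM.

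**Figure D2:**
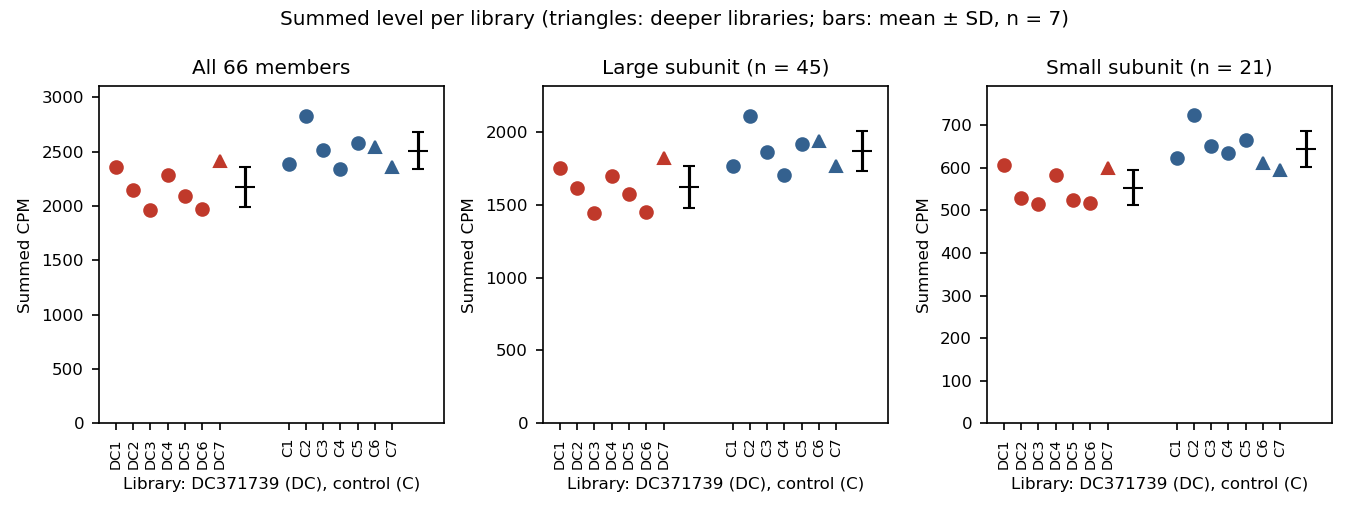
Summed expression in CPM of all 66 members, of the 45 large-subunit genes and of the 21 small-subunit genes, one point per library, DC371739 in red and control in blue, with the 3 deeper libraries as triangles and bars for mean ± SD (n = 7 each). In the first panel DC371739 libraries lie between 1962 and 2419 CPM and control libraries between 2344 and 2832 CPM.

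The libraries differed in how many members were low. In DC3, 64 of 66 members lay below their own median over 14 libraries, in DC6 63, in DC5 57 and in DC2 56. In DC4 there were 32, in DC1 29 and in DC7 25, close to the control libraries C1, C4 and C7, with 25 to 29. The fewest were in C2, with 5. DC6 held the lowest value of 19 members and DC3 that of 17, whereas C2 held the highest value of 32 members and C6 that of 17. The members were thus lowest in DC2, DC3, DC5 and DC6.

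**Figure D3:**
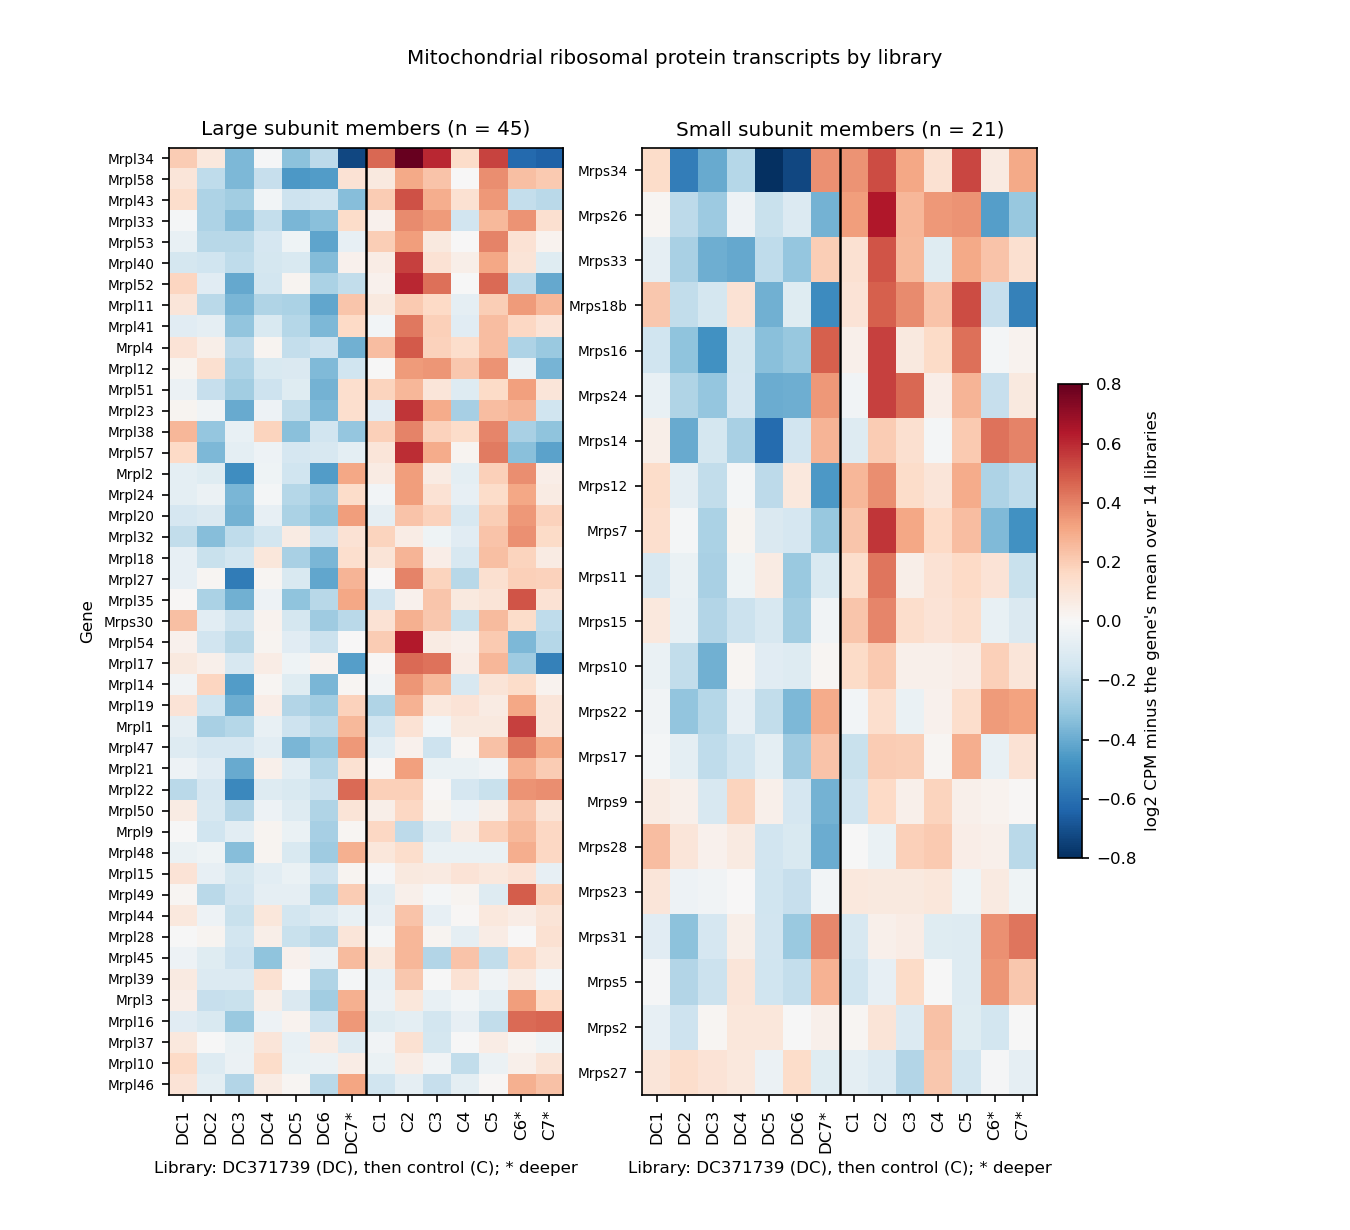
Heat map of log2 CPM of each member minus its mean over 14 libraries, with DC371739 libraries left of the line and control libraries right of it, deeper libraries marked with an asterisk, and colours limited to 0.8 either way. Rows run from the most negative fold change in the fit with the library class term. DC2, DC3, DC5 and DC6 are blue over most rows, C2 is red over most rows, and DC7, C6 and C7 share the same colour within many rows.

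With all 14 libraries and the treatment group alone in the model, no member passed an adjusted p of 0.05 by edgeR's quasi-likelihood test with Benjamini-Hochberg adjustment over 12166 genes, in either direction. Of all tested genes, 1.24% were called higher and 0.608% lower. The log2 fold change, DC371739 over control, was negative for 63 of the 66 members, against 53.4% of all tested genes, and its median was -0.22, against -0.02 over all tested genes. Values lay between -0.58 (Mrps34) and 0.12 (Mrps27). At an unadjusted p under 0.05, 25 members were lower and 0 higher, and 9.60% of all genes were lower and 10.8% higher at that level.

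Other tests of the same 14 libraries called some members. DESeq2 called 7 members lower, where it called 2.74% of all genes lower: Mrpl33, Mrpl40, Mrpl51, Mrpl53, Mrpl58, Mrps33 and Mrps34. Limma-voom with sample weights called 34 members lower, where it called 10.9% of all genes lower. In the authors' deposited table, 0 of the 66 members and 210 of 10023 genes had an adjusted p-value under 0.05. In the authors' deposited table the smallest such value among members was 0.0598, for Mrpl58, and 62 members had a negative log2 fold change.

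When the model also held the library class, 18 of 66 members (27.3%) fell in DC371739 livers and 0 rose, with 6.70% of all tested genes lower and 5.62% higher. The median log2 fold change of the members was -0.21, against -0.0046 over all tested genes. The 18 were 10 of 45 large-subunit genes (Mrpl4, Mrpl11, Mrpl33, Mrpl34, Mrpl40, Mrpl41, Mrpl43, Mrpl51, Mrpl53 and Mrpl58) and 8 of 21 small-subunit genes (Mrps10, Mrps11, Mrps12, Mrps15, Mrps18b, Mrps26, Mrps33 and Mrps34). By origin they were 8 of the 39 with a bacterial counterpart and 10 of the 27 specific to mitochondria. The count depended on single libraries: it was 3 without C5, 6 without C2, 7 without C3, 8 without DC2 or without DC3, 9 without DC5 or without DC6, and 32 without DC7. Mrpl34, Mrpl43 and Mrps26 were called in every one of these fits. The shares of all genes called in these fits are not given, so the counts cannot be set against them.

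Over the 11 shallower libraries alone, 29 of 66 members (43.9%) fell and 0 rose, with 10.5% of 12249 tested genes lower and 11% higher. The median log2 fold change was -0.25 over the members and 0.0051 over all tested genes. The 29 included all 18 genes named above. The other members called there were Mrpl2, Mrpl12, Mrpl20, Mrpl24, Mrpl52, Mrpl54, Mrpl57, Mrps7, Mrps16, Mrps22 and Mrps24. By subunit they were 17 of 45 large and 12 of 21 small, and by origin 15 of 39 with a bacterial counterpart and 14 of 27 specific to mitochondria. The count was 19 without C2 and likewise without C5, and 19 members were called in every fit that left out 1 of the 11 libraries. No share of all genes called is given for those fits.

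**Figure D4:**
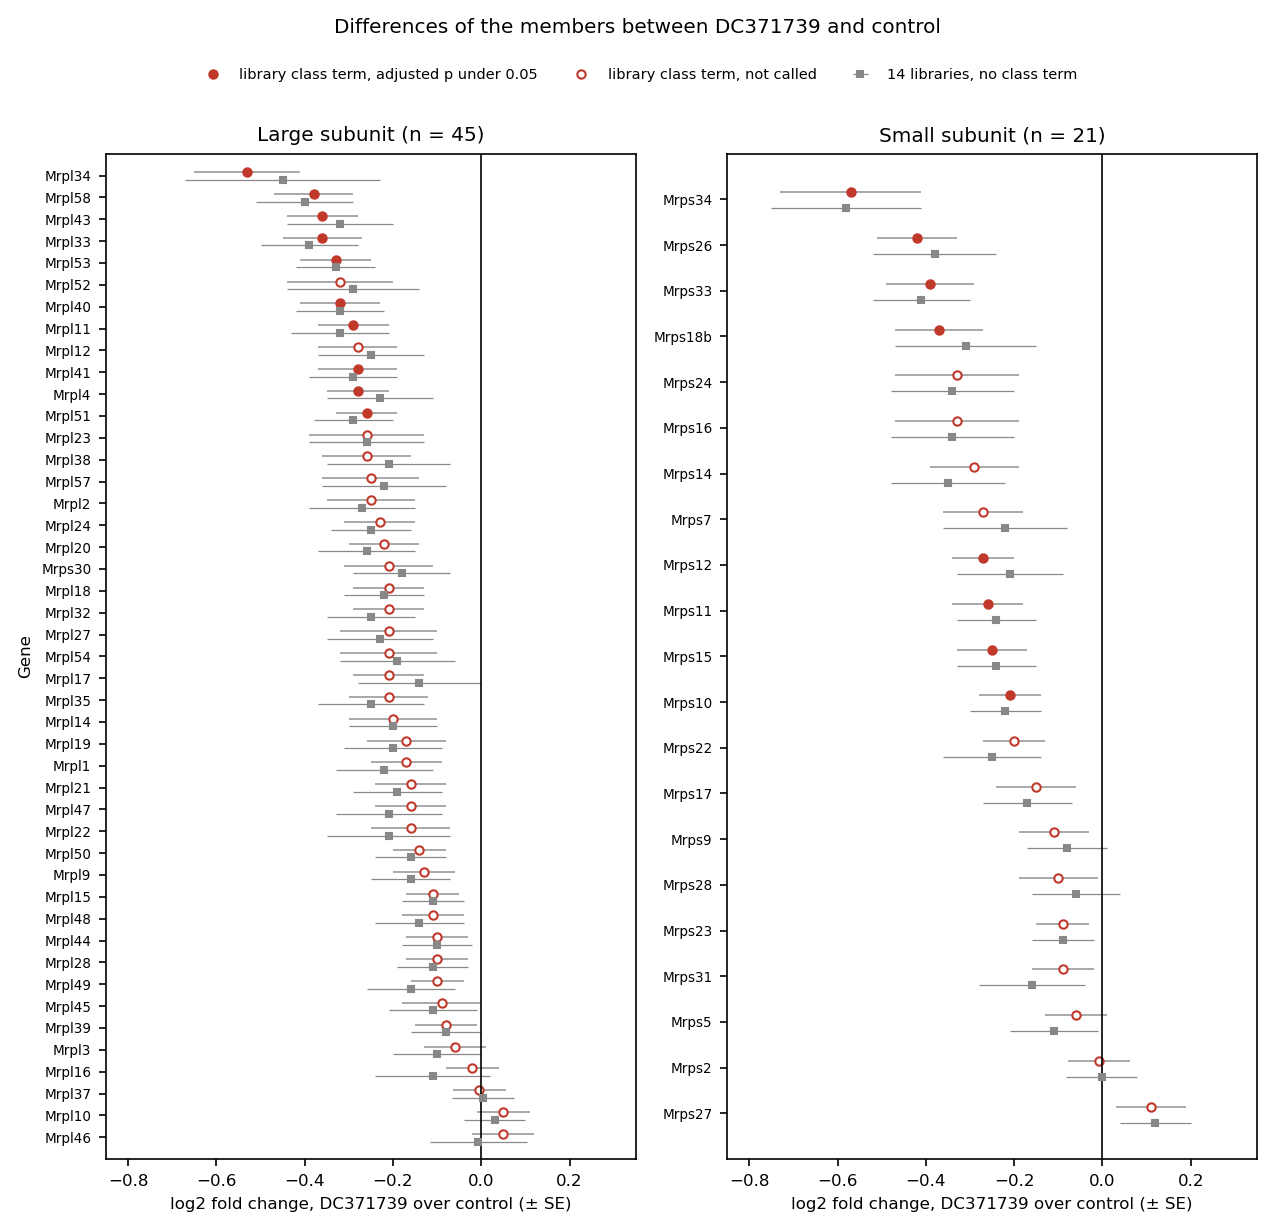
Log2 fold change, DC371739 over control, with its SE for each member, large subunit on the left and small subunit on the right. Circles come from the model with the library class term and are filled where the adjusted p was under 0.05; grey squares come from the model without it. Filled circles mark 10 large-subunit and 8 small-subunit genes, all left of 0, and no member right of 0 is filled.

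Few members separated the groups completely. Every DC371739 library lay below every control library for 2 members, Mrpl53 and Mrps10, and this held for 0.403% of all tested genes. Over the 11 shallower libraries it held for 10 members, Mrpl4, Mrpl40, Mrpl53, Mrpl54, Mrps7, Mrps10, Mrps15, Mrps16, Mrps24 and Mrps26, and for 5.27% of all genes. The control median exceeded all 7 DC371739 values for 22 members and at least 6 of them for 48 members, against 12% and 26.6% of all tested genes. For scale, the median SD of a member's log2 CPM was 0.18 in DC371739 livers and 0.18 in control livers.

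Among small-subunit genes the most negative fold change was that of Mrps34 (ENSMAUG00000015906, scaffold KB708243.1, 2159096 to 2160228, minus strand), which encodes a mitochondria-specific protein needed for a stable small subunit in mammals. It had 35.4, 21.8, 24.1, 27.3, 18.0, 19.3 and 41.2 CPM in DC1 to DC7, against 40.9, 45.9, 39.6, 34.7, 46.2, 33.6 and 39.4 CPM in C1 to C7. DC1 and DC7 lay within the control values and the other 5 DC371739 libraries below all of them. The means were 26.7 ± 8.64 CPM in DC371739 livers and 40.1 ± 4.89 CPM in control livers (SD, n = 7 each). The log2 fold change was -0.58 (SE 0.17, adjusted p = 0.0714) over 14 libraries and -0.57 (SE 0.16, adjusted p = 0.0365) with the class term. In the 11 shallower libraries it was -0.77 (SE 0.15, adjusted p = 0.00498).

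Mrps26 (ENSMAUG00000019571, KB708141.1, 10344738 to 10348113, plus strand), also specific to mitochondria, had the smallest adjusted p among the members with the class term. It had 27.0, 23.1, 21.8, 25.9, 23.6, 24.7 and 20.5 CPM in DC1 to DC7, against 33.7, 41.6, 32.1, 33.9, 34.2, 19.7 and 21.6 CPM in C1 to C7. The deeper libraries DC7, C6 and C7 were the 3 lowest of all, and among the other 11 no DC371739 value reached a control value. The log2 fold change was -0.38 (SE 0.14, adjusted p = 0.155) without the class term and -0.42 (SE 0.09, adjusted p = 0.00976) with it. Mrps18b, 1 of the mammalian paralogs related to bacterial S18, was counted here among the proteins specific to mitochondria. Mrps18b was also lowest in DC7 and C7 of its groups, and its groups overlapped. Over 14 libraries it had -0.31 (adjusted p = 0.284) on the log2 scale, and -0.37 (SE 0.10, adjusted p = 0.0275) with the term.

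Mrps33, a further mitochondria-specific protein, ranged from 13.8 to 21.0 CPM with a median of 15.3 in DC371739 livers and from 17.1 to 26.0 CPM with a median of 21.5 in control livers. DC1 and DC7 overlapped the control values, and the other DC371739 libraries lay below all of them. Its log2 fold change was -0.41 (SE 0.11, adjusted p = 0.0635) over 14 libraries and -0.39 (SE 0.10, adjusted p = 0.0236) with the class term.

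The small-subunit genes with a bacterial counterpart described next are Mrps10, Mrps12, Mrps15 and Mrps11. Mrps10 (ENSMAUG00000018141, KB708159.1, 11584874 to 11592992, plus strand) had 25.9 to 34.2 CPM with a median of 31.8 in DC371739 livers and 34.7 to 39.1 CPM with a median of 36.1 in control livers. The groups did not overlap, although the gap was narrow, and the log2 fold change with the class term was -0.21 (SE 0.07, adjusted p = 0.0488). Mrps12, whose bacterial counterpart lines the decoding centre, had 19.7 to 29.9 CPM with a median of 25.7 in DC371739 livers and 22.8 to 35.0 CPM with a median of 29.9 in control livers. Its groups overlapped, and its log2 fold change with the class term was -0.27 (SE 0.07, adjusted p = 0.0271). Mrps15 and Mrps11, counterparts of bacterial S15 and S11, had log2 fold changes of -0.25 (SE 0.08) and -0.26 (SE 0.08) in that fit. Over 14 libraries without the term, adjusted p was 0.120 for Mrps10, 0.327 for Mrps12, 0.151 for Mrps15 and 0.157 for Mrps11.

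Mrps16, Mrps24 and Mrps7, whose proteins have bacterial counterparts too, were called over the 11 shallower libraries and not with the class term. Mrps16 had 11.9 to 23.2 CPM with a median of 13.5 in DC371739 livers and 16.5 to 24.3 CPM with a median of 17.6 in control livers, and DC7 held the highest DC371739 value. The log2 fold change of Mrps16 was -0.33 (adjusted p = 0.108) with the class term and -0.54 (SE 0.11, adjusted p = 0.00413) over the 11 libraries. For Mrps24 those values were -0.33 (adjusted p = 0.109) and -0.52 (SE 0.12, adjusted p = 0.00765).

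Among large-subunit genes, Mrpl58 (ENSMAUG00000014528, KB708147.1, 6376553 to 6380938, minus strand) encodes a peptidyl-tRNA hydrolase built into the subunit, which frees stalled mitochondrial ribosomes. It had 34.6, 28.1, 25.3, 28.5, 23.6, 23.8 and 35.1 CPM in DC1 to DC7, against 34.2, 40.0, 37.9, 32.5, 42.0, 38.3 and 37.4 CPM in C1 to C7. DC1 and DC7 overlapped the lowest controls, C1 and C4, and the other DC371739 libraries lay below all controls. The means were 28.4 ± 4.77 CPM in DC371739 livers and 37.5 ± 3.26 CPM in control livers (SD, n = 7 each). Mrpl58 had the smallest adjusted p of the members over 14 libraries, 0.0565, with a log2 fold change of -0.40 (SE 0.11). With the class term the log2 fold change was -0.38 (SE 0.09, adjusted p = 0.0192).

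Mrpl53 (ENSMAUG00000010618, KB708208.1, 10934155 to 10935757, plus strand), specific to mitochondria, had 24.6, 22.0, 22.0, 23.3, 25.0, 19.1 and 24.5 CPM in DC1 to DC7, against 29.4, 32.3, 27.0, 25.7, 33.7, 27.8 and 26.1 CPM in C1 to C7. The groups did not overlap, and DC5 came closest to the lowest control, C4. Its log2 fold change was -0.33 (SE 0.09, adjusted p = 0.0608) over 14 libraries and -0.33 (SE 0.08, adjusted p = 0.0195) with the class term, so that the term left the size as it was. Mrpl40, likewise specific to mitochondria and in human a gene of the 22q11 deletion region, had 25.2 to 32.9 CPM with a median of 29.1 in DC371739 livers and 30.0 to 47.0 CPM with a median of 34.5 in control livers. The fitted difference was -0.32 on the log2 scale in both fits (adjusted p = 0.0895 over 14 libraries and 0.0328 with the class term).

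Mrpl34 (ENSMAUG00000001884, KB708466.1, 72945 to 73678, minus strand), counterpart of the short bacterial protein L34, had the most negative fold change of the large subunit in the fit with the class term. It had 28.8, 26.6, 19.5, 24.9, 20.0, 21.7 and 15.1 CPM in DC1 to DC7, against 34.5, 45.5, 38.1, 27.8, 36.5, 16.3 and 16.0 CPM in C1 to C7. The 3 deeper libraries held its 3 lowest values, in both groups. Its log2 fold change was -0.45 (SE 0.22, adjusted p = 0.259) without the class term, -0.53 (SE 0.12, adjusted p = 0.0139) with it, and -0.62 (SE 0.13, adjusted p = 0.00500) over the 11 shallower libraries.

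Mrpl43 and Mrpl4 were likewise lowest, within each group, in the deeper libraries. Mrpl43, specific to mitochondria, had 38.4 to 53.5 CPM with a median of 43.2 in DC371739 livers and 41.8 to 69.1 CPM with a median of 55.9 in control livers. Its log2 fold change with the class term was -0.36 (SE 0.08, adjusted p = 0.0132). Mrpl4, whose bacterial counterpart lines the peptide tunnel, had 43.0 to 60.4 CPM with a median of 50.0 in DC371739 livers and 45.6 to 78.9 CPM with a median of 63.7 in control livers. For Mrpl4 the value with the class term was -0.28 (SE 0.07, adjusted p = 0.0226). Over 14 libraries without the term, the values were -0.32 (adjusted p = 0.143) for Mrpl43 and -0.23 (adjusted p = 0.285) for Mrpl4.

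Mrpl33, Mrpl41, Mrpl51 and Mrpl11 differed from these in that the deeper libraries were not the lowest. Mrpl33 had 26.1 to 37.2 CPM with a median of 28.3 in DC371739 livers and 30.3 to 43.7 CPM with a median of 40.2 in control livers, and its log2 fold change with the class term was -0.36 (SE 0.09, adjusted p = 0.0217). Mrpl41 had 47.0 to 67.4 CPM with a median of 55.5 in DC371739 livers and 56.8 to 80.9 CPM with a median of 67.9 in control livers, with -0.28 (SE 0.09, adjusted p = 0.0451) in that fit. The highest DC371739 value of both genes was in DC7. Mrpl51, specific to mitochondria, had a log2 fold change of -0.26 (SE 0.07, adjusted p = 0.0321). Mrpl11, whose bacterial counterpart forms the base of the stalk that recruits translation GTPases, had -0.29 (SE 0.08, adjusted p = 0.0311). Without the term, over 14 libraries, adjusted p was 0.0635 for Mrpl33, 0.108 for Mrpl41, 0.0942 for Mrpl51 and 0.105 for Mrpl11.

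The other stalk proteins described here are those of Mrpl12 and Mrpl10. Mrpl12, counterpart of the bacterial stalk protein L7/L12, had 32.5 to 45.4 CPM with a median of 38.1 in DC371739 livers and 32.0 to 53.1 CPM with a median of 48.2 in control livers. It was called over the 11 shallower libraries, with a log2 fold change of -0.36 (SE 0.09, adjusted p = 0.0153), and not with the class term (-0.28, adjusted p = 0.0553). Mrpl10, which anchors that protein to the ribosome, had 33.1 ± 2.46 CPM in DC371739 livers and 32.3 ± 2.15 CPM in control livers (SD, n = 7 each), with a log2 fold change of 0.05 (SE 0.06, adjusted p = 0.648) in the fit with the class term. The difference between the 2 genes was not tested.

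The members without a negative fold change over 14 libraries were Mrps27, Mrpl10 and Mrpl37. Mrps27, a small-subunit protein of the pentatricopeptide-repeat family, had 21.5 to 25.5 CPM with a median of 24.6 in DC371739 livers and 19.6 to 26.8 CPM with a median of 21.8 in control livers. Its log2 fold change was 0.12 (SE 0.08, adjusted p = 0.425), and C4 held its highest value. Mrpl37, specific to mitochondria, had 51.4 ± 2.81 CPM in DC371739 livers and 51.2 ± 2.93 CPM in control livers (SD, n = 7 each), and the sign of its fold change depended on the fit (0.0044 over 14 libraries and -0.0043 with the class term). Mrps2, counterpart of bacterial S2, had 28.5 ± 1.77 CPM in DC371739 livers and 28.5 ± 2.73 CPM in control livers (SD, n = 7 each).

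The share of members that differed by library class was near that of all genes. Comparing the 3 deeper libraries with the other 11 in the model that also held treatment, 15 members (22.7%) were higher and 13 (19.7%) lower in the deeper libraries, with 22.6% of all tested genes higher and 23.8% lower. The median log2 difference of the members was 0.09, against -0.0025 over all tested genes. The largest rise was that of Mrpl16, counterpart of bacterial L16, at 0.53 (SE 0.07, adjusted p = 1.36e-05). It had 67.2 CPM in DC7, 72.5 CPM in C6 and 73.1 CPM in C7, against 43.0 to 53.9 CPM in the shallower DC371739 libraries and 46.2 to 50.5 CPM in the shallower control libraries. The largest fall was that of Mrpl34, at -0.96 (SE 0.15, adjusted p = 9.65e-05).

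Of the 18 members that fell with DC371739 in the fit with the class term, 6 were also lower in the deeper libraries: Mrpl4, Mrpl34, Mrpl43, Mrps12, Mrps18b and Mrps26. One, Mrpl11, was higher in them, by 0.29 on the log2 scale (SE 0.10, adjusted p = 0.0210). The remaining members of the 18 were not called by class. Without C7 the number of members lower in the deeper libraries was 8. With library size alone in place of TMM, the numbers were 9 higher and 19 lower, and that scaling moved the median of all tested genes by class to -0.14. By class, 25 members had a negative difference with TMM and 36 with library size alone. The direction by library class therefore depended on the scaling for some members.

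Within the members, shorter genes had the more negative fold changes. Across the 66 genes, which share their libraries, the Spearman rho of the log2 fold change with summed exon length was 0.51 over 14 libraries, 0.46 with class in the model and 0.50 over 11 libraries. Over all tested genes the rho was 0.14, 0.14 and 0.16 in the same fits. Of the 33 shorter members, 13 fell in the fit with the class term and 20 in that of the 11 libraries, with medians of -0.25 and -0.32. Of the 33 longer members, 5 and 9 fell in those fits, with medians of -0.13 and -0.14. Over 14 libraries, 0 of the shorter and 0 of the longer members were called. Of all tested genes, whatever their length, 6.70% were lower with the class term and 10.5% over the 11 libraries. The share for all genes of similar length is not given. Whether length has a part in the differences was not tested.

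**Figure D5:**
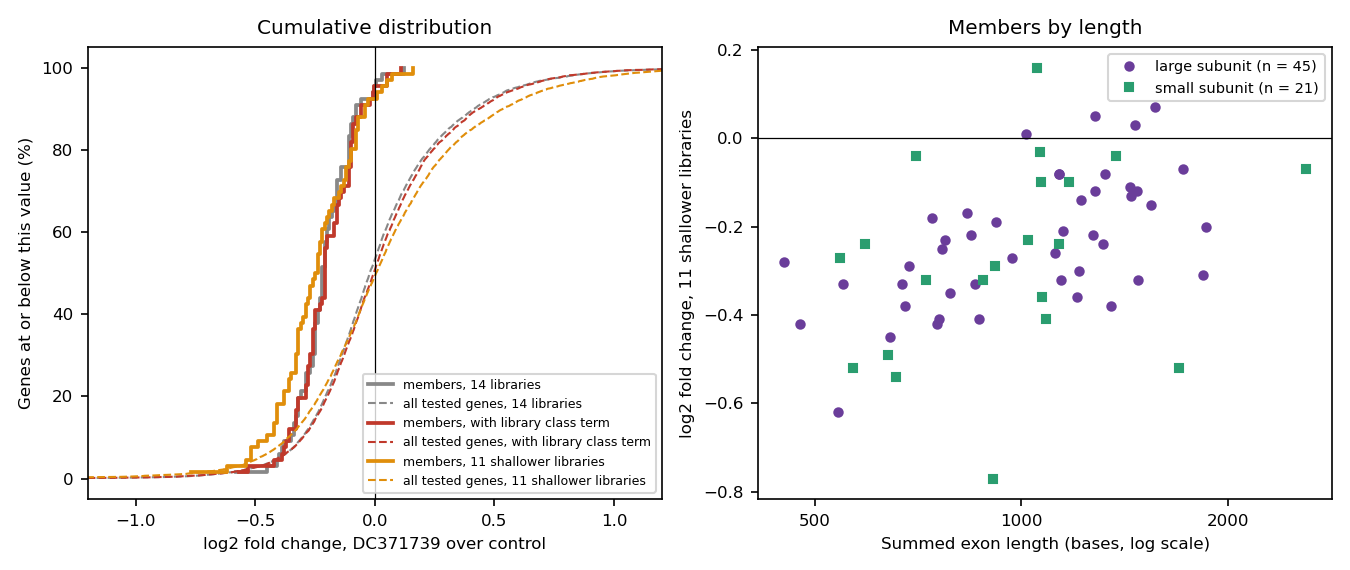
Left, cumulative distribution of log2 fold changes, DC371739 over control, for the 66 members (solid) and all tested genes (dashed) in 3 fits; the member curves lie left of those of all genes over most of their length, with medians of -0.22, -0.21 and -0.25. Right, log2 fold change over the 11 shallower libraries against summed exon length on a log scale, for large-subunit (circles) and small-subunit (squares) genes, where the shorter genes lie lower (Spearman rho 0.50, n = 66 genes).

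Other proteins of the same ribosome and the factors that build and run it were counted in the same fits. The lists were chosen with earlier results of these data known. Their counts are set beside the shares of all tested genes, which were 0.608% lower and 1.24% higher over 14 libraries (9.60% and 10.8% at an unadjusted p under 0.05), 6.70% lower and 5.62% higher with the class term, and 10.5% lower and 11% higher over the 11 shallower libraries. Of 4 measured ribosomal proteins with other names, 0 were called over 14 libraries (2 lower at an unadjusted p under 0.05), 1 fell with class in the model and 2 over the 11 libraries. Chchd1, of the small subunit, had 26.0 ± 1.32 CPM in DC371739 livers and 30.5 ± 3.94 CPM in control livers (SD, n = 7 each), and fell with the class term (log2 fold change -0.25, SE 0.08, adjusted p = 0.0424). Gadd45gip1, of the large subunit, had 25.3 ± 6.85 CPM in DC371739 livers and 35.7 ± 10.1 CPM in control livers, and fell over the 11 libraries (-0.77, SE 0.15, adjusted p = 0.00427). It did not pass the test with the class term (adjusted p = 0.102).

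Of 25 measured assembly factors of the mitochondrial ribosome, 0 were called over 14 libraries (8 lower at an unadjusted p under 0.05) and 8 (32.0%) fell with the class term, where 6.70% of all genes were lower. Without the 3 deeper libraries, 9 (36.0%) fell and 1 rose, with 10.5% of all genes lower and 11% higher. Their median log2 fold change was -0.15 with the class term. Mterf3, which acts in assembly of the large subunit, had 5.76 ± 0.772 CPM in DC371739 livers and 7.81 ± 0.743 CPM in control livers (SD, n = 7 each), with -0.47 (SE 0.10, adjusted p = 0.0136) in that fit. Rbfa, an assembly factor of the small subunit, had -0.30 (SE 0.08, adjusted p = 0.0269), and Mterf4, which acts with an rRNA methyltransferase, -0.32 (SE 0.08, adjusted p = 0.0236).

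Over 14 libraries, none of the remaining genes of the pathway was called by edgeR's quasi-likelihood test, and at an unadjusted p under 0.05 there were 1 lower translation factor, 3 lower and 1 higher synthetases, and 2 lower and 1 higher genes of transcription and biogenesis. Of 14 translation factors of mitochondria, 1 fell in the fit with library class and 1 over the 11 libraries, 7.14% in each, near the 6.70% and 10.5% of all genes. The member called with the class term, Slirp, whose protein stabilises mitochondrial mRNAs, had a log2 fold change of -0.40 (SE 0.10, adjusted p = 0.0210). Of 20 genes that charge mitochondrial tRNAs, 0 fell and 1 rose with the class term, Lars2, the leucyl-tRNA synthetase, with 0.38 (SE 0.10, adjusted p = 0.0271). Over the 11 shallower libraries 2 of them (10%) fell, near the 10.5% of all genes. These were Yars2 with -0.38 (SE 0.08, adjusted p = 0.00689) and Hars2 with -0.28 (SE 0.09, adjusted p = 0.0354). In the same fit 1 (5%) rose, Lars2, where 11% of all genes were higher. Over 14 libraries 13 of the 20 had a negative log2 fold change, and 12 did with the class term. Of 15 genes of mitochondrial transcription and biogenesis, 2 fell with the class term, Mterf2 with -0.41 (SE 0.10, adjusted p = 0.0205) and Tefm, the elongation factor of mitochondrial transcription, with -0.25 (SE 0.08, adjusted p = 0.0485). Over the 11 libraries 2 of these genes fell and 2 rose, 13.3% each way, near the shares of all genes. Gabpb2, 1 of the 2 that rose, had 0.75 (SE 0.18, adjusted p = 0.0112) over the 11 libraries.

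Markers of liver cell types were read in the same libraries. Of 9 measured hepatocyte markers, such as Alb and Apoa1, 0 were called over 14 libraries, 0 with the class term and 1 higher over the 11 shallower libraries. In each of these fits 6 of the 9 (66.7%) had a negative log2 fold change, against 53.4%, 50.8% and 49.3% of all tested genes. The hepatocyte markers, of which Alb was the largest, summed to 115486 to 137121 CPM in DC371739 livers and 115588 to 151626 CPM in control livers. Of 14 macrophage markers, 3 rose over 14 libraries (Laptm5, Ctss and Mpeg1), 8 with the class term and 6 over the 11 libraries, where 1.24%, 5.62% and 11% of all tested genes were higher. Over 14 libraries 4 of the macrophage markers had a negative log2 fold change, down to -0.55. With the class term 3 were negative, and likewise 3 over the 11 libraries. The macrophage markers summed to 940 to 1445 CPM in DC371739 livers and 816 to 1236 CPM in control livers.

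With the class term, 2 of 8 lymphocyte, 1 of 3 neutrophil, 2 of 8 endothelial and 1 of 10 stellate and fibroblast markers rose, and 0 of 5 cholangiocyte and 0 of 1 erythroid markers did, against 5.62% of all tested genes. Over 14 libraries, 0 markers of these lists were called. Over the 11 shallower libraries, 2 lymphocyte, 1 neutrophil, 3 endothelial and 1 stellate and fibroblast markers rose, where 11% of all tested genes were higher. The stellate and fibroblast markers summed to 292 to 486 CPM in DC371739 livers and 221 to 351 CPM in control livers. No marker list held a gene called lower in any of the 3 fits or a gene at 0 in every library. Several defining markers are not under these symbols in the authors' table and were not analysed here, Cd68 of macrophages and Cd4 and Cd8a of lymphocytes among them. The part of these cell types in the lower values of the ribosomal protein genes was not tested.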

How the data were processed

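Liver RNA was sequenced from 7 DC371739 and 7 control samples, grouped by the labels' treatment field. The authors deposited whole-number counts per Ensembl gene with exon coordinates and summed exon length, per the file headers. The second table the authors deposited holds FPKM per library, log2 fold changes and p-values for genes with a symbol. From the values, each FPKM equals count over length and 1 constant per library (largest relative deviation 1.3e-07). HISAT2 2.2.1, featureCounts 2.0.0 and edgeR are named, per the submitters' processing notes, while build, annotation release and strand setting are stated nowhere in them.

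The members and lists were chosen with earlier results of these data known. The test was edgeR 4.0.16 in R 4.3.3 on these counts (quasi-likelihood F-test, robust, TMM, minimum count of 10, 12166 genes; 12249 over the 11 shallower libraries), Benjamini-Hochberg adjusted over all tested genes and called under 0.05. The SE is the log2 fold change over the square root of F. CPM are per 1e+06 TMM-scaled counts; log2 CPM used a prior count of 2. The code that computes these statistics was tested on simulated data. Alternatives were DESeq2 1.42.0, limma 3.58.1 on counts and on log2 FPKM, other scalings and filters, and leaving out each library. The rule named any members called over 14 libraries and the 10 of smallest p in each direction there. It also named up to 10 called with the class term in each direction, and the 5 highest and 5 lowest by FPKM. Mrpl2, Mrpl12, Mrpl16, Mrpl20, Mrpl24, Mrpl52, Mrpl54, Mrpl57, Mrps2, Mrps7, Mrps11, Mrps15, Mrps16, Mrps22 and Mrps24 were added after their values were seen. Genes named from the pathway lists were among the 3 of smallest p per list, and not all 3 are named for every list. No 2 libraries of a group agreed within sampling noise (42 pairs, each with a chi-square of at least 11.2 per degree of freedom). Sequences and promoters of the members were not analysed here.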

Additional observations from a re-analysis of the deposited data

Results flagged for a closer look

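The CPM of Mrpl22, whose bacterial counterpart lines the peptide tunnel, stood apart in 1 library. DC371739 replicate 7 had 19.1 CPM, and the other 6 DC371739 libraries had 9.77 to 13.0 CPM, a gap of 0.647 of the group's range above Dixon's critical value for 7 samples. DC371739 replicate 7 is 1 of the 3 deeper libraries, and the deeper control libraries had 17.9 CPM (replicate 6) and 18.0 CPM (replicate 7), against 12.3 to 15.9 CPM in the shallower control libraries. Chance flags about 1 in 20 such groups, and 54 groups were examined.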

How the results depend on the processing

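Over 14 libraries, the median log2 fold change of the members kept its sign under every alternative, and no alternative called a member higher. The number called lower, 0 in the fit of treatment alone, was 18 with the class term, 29 in the 11 shallower libraries, 7 with DESeq2, 34 with limma-voom and 1 (Mrpl58) with limma on log2(FPKM + 1). Leaving out 1 library gave 0 to 15 called lower, with 15 without DC7, 1 without C4 (Mrpl33) and 1 without C7 (Mrpl53), and medians of -0.25 to -0.18. With the class term, leaving out 1 library gave 3 to 32 and medians of -0.25 to -0.17, and limma-voom gave 32. Among the 11 shallower libraries, leaving out 1 gave 19 to 34 lower and 0 to 1 higher (Mrps27 without C4). Alternatives to the fit with the class term, and leaving out libraries of the 11, were chosen after seeing the data. For fits without 1 library, and for limma-voom with the class term, the shares of all genes called are not given.

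By library class, leaving out 1 library gave 10 to 19 higher, 8 to 14 lower and medians of 0.0086 to 0.17. The number higher was 8 within the control libraries alone and 9 with library size alone, and the median was -0.0021 and -0.04 in those fits. The split of calls over all genes over 14 libraries was 151 higher and 74 lower with TMM, 223 and 65 with upper-quartile scaling, and 124 and 36 with library size alone. With the class term it was 684 and 815 with TMM and 817 and 553 with upper-quartile scaling, which called 13 members lower.

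Of the members named by the rule, only Mrpl37 turned its sign. It was -0.0043 with the class term and -0.02 to -5e-06 without 1 library (6 libraries). In the fit with the class term it was 0.0062 with library size alone, 0.03 with upper-quartile scaling, 0.0068 with limma-voom and -0.03 to 0.02 without 1 library. Mrpl16, named after its values were seen, had -0.11 over 14 libraries, -0.02 once class was in the model and 0.01 in the 11 shallower libraries. The cause of these differences was not tested. Deviations of same-numbered samples correlated at 0.121 for number 3, 0.548 for number 7 (DC7 and C7, both deeper) and -0.131 to 0.032 for the other numbers, so the numbers were not taken as pairs. With the replicate block 0 members were called and the median was -0.21. Every member had counts of 132 or more in every library, and the parts of depth and of spread between libraries were not separated.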

Other observations

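Other nuclear-encoded genes of protein synthesis and oxidative phosphorylation were measured beside the mitochondrial ribosomal proteins. Of 55 subunits of the respiratory chain and ATP synthase encoded in the nucleus, 0 were called over 14 libraries by edgeR's quasi-likelihood test (27 lower and 0 higher at an unadjusted p under 0.05), 7 fell and 1 rose with the class term, and 21 fell and 1 rose over the 11 shallower libraries. Of all tested genes, 9.60% were lower at that unadjusted level over 14 libraries, 6.70% were lower and 5.62% higher with the class term, and 10.5% were lower and 11% higher over the 11 libraries. Their median log2 fold changes were -0.24, -0.22 and -0.26 in those fits. Ndufa2, a subunit of complex I, had 27.1 ± 6.44 CPM in DC371739 livers and 42.4 ± 9.06 CPM in control livers (SD, n = 7 each), with -0.64 (SE 0.16, adjusted p = 0.0228) in the fit with the class term. Ndufb9 and Ndufc1, of the same complex, had -0.32 (SE 0.09, adjusted p = 0.0307) and -0.27 (SE 0.08, adjusted p = 0.0421) in that fit.

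Of 23 proteins of the cytosolic ribosome with a symbol in the authors' table, 0 were called over 14 libraries (2 lower and 0 higher at an unadjusted p under 0.05), 1 (4.35%) fell with the class term and 8 (34.8%) fell over the 11 shallower libraries, with medians of -0.14, -0.14 and -0.20. The shares of all genes lower in those fits were 9.60% (unadjusted), 6.70% and 10.5%. The gene called with the class term, Rps27l, had 46.7 ± 3.25 CPM in DC371739 livers and 55.8 ± 4.10 CPM in control livers (SD, n = 7 each), and a log2 fold change of -0.25 (SE 0.06, adjusted p = 0.0218). Many cytosolic ribosomal protein genes have processed copies, so that reads may be split between them. Differences between these lists and the mitochondrial ribosomal proteins were not tested.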
